A study of Mus musculus with 3 samples.

Results

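The Ltf/Lcn2 cells are epithelial cells of a mouse culture called PC that carried transcripts of lactotransferrin (Ltf), lipocalin 2 (Lcn2), the GABA receptor subunit Gabrp, the alarmin Il33 and the retinaldehyde dehydrogenase Aldh1a3. They were chosen by measured values. A cell barcode first had to hold at least 500 genes, at least 1000 UMIs (unique molecules) and at most 20% mitochondrial UMIs, and at most 1 UMI in all of the mesenchymal genes Vim, Col5a1, Grem1, Aebp1 and Ccn5. It was then taken if it held at least 4 UMIs of the 5 selecting genes, with at least 2 of those genes detected. This gave 1031 cells, 7.87% (exact 95% binomial interval 7.41% to 8.34%) of the 13100 epithelial-gated cells, out of 14925 cells after quality filters and 18116 barcodes in the matrix. The 9746 epithelial-gated cells with 0 UMIs of the 5 genes served as reference cells, and 2323 cells lay between, with some UMIs of the 5 genes but too few UMIs or too few of the genes for the choice.

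PC cells come from esophageal organoids of mice with floxed Trp53 alleles. An adenovirus carrying Cre and EGFP deleted Trp53, which encodes p53, and CRISPR/Cas9 then knocked out Cdkn2a, which encodes p16 and p19Arf. The organoids were dissociated and their cells grown in serum-containing medium, at first with the compound Y-27632 and later without it. The cells expressed Cas9 constitutively, received a library of DNA barcodes by transfection and were expanded for 3 passages. Viable cells with red fluorescence (RFP) were sorted for droplet sequencing. All cells compared below share this background, since they come from 1 culture and 1 count matrix. There is no replicate, no untreated control and no p-value, and every interval covers counting error only.

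Lactotransferrin and lipocalin 2 are secreted proteins that withhold iron from microbes, the first by binding iron itself and the second by binding the siderophores with which bacteria collect it. Both are stored in neutrophil granules and are also made by the lining of glands and airways, where inflammatory cytokines induce Lcn2. Il33 is a nuclear cytokine released by damaged barrier cells, Gabrp is a chloride channel subunit found in several glandular epithelia, and Aldh1a3 makes retinoic acid from retinaldehyde.

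The name secretory was checked against a list of 32 genes of secretory epithelium and held for part of it. The protease inhibitor Slpi, the antimicrobial whey protein Wfdc2, the immunoglobulin transporter Pigr, the mucin Muc4 and the carbonyl reductase Cbr2 were higher in the Ltf/Lcn2 cells. Pigr and Muc4 entered the comparison only through their level in the Ltf/Lcn2 cells, so they had to come out higher and do not bear on the name. Of the 6 listed genes that reached the minimum level used below in reference cells, 3 were higher, namely Slpi, Wfdc2 and Cbr2. However, 12 of the 32 genes had 0 UMIs among the 3591335 UMIs of these cells, which allows a level of up to 0.835 CPM (UMIs per 1000000 UMIs) for each. They include the gel-forming mucins Muc5ac and Muc5b, the trefoil factors Tff1, Tff2 and Tff3, the club cell secretoglobin Scgb1a1 and the goblet cell regulator Spdef. The cells are therefore named by their genes here.

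For orientation in the genome, Ltf (ENSMUSG00000032496) lies on chromosome 9 from 111019271 to 111042767 on the plus strand, and Lcn2 (ENSMUSG00000026822) on chromosome 2 from 32384633 to 32388252 on the minus strand. Gabrp (ENSMUSG00000020159) spans 33550781 to 33578959 of chromosome 11 on the minus strand, Il33 (ENSMUSG00000024810) spans 29925114 to 29960718 of chromosome 19 on the plus strand, and Aldh1a3 (ENSMUSG00000015134) spans 66390890 to 66427517 of chromosome 7 on the minus strand. These coordinates are from GENCODE M21 on GRCm38, the assembly of the mm10 build.

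Some of the selecting genes share a short word in front of a transcription start. The RefSeq promoter table (GRCm38.p6, from 250 bases before to 50 bases after each start) held windows for 4 of the 5 genes, all but Aldh1a3. The word TTGCNNAA, a core of C/EBP binding sites searched on both strands, occurred in 3 of their 5 windows, those of Ltf, Lcn2 and the second start of Il33, and in 10.8% of all 32851 windows. The word was chosen after the expression values were seen, and a match is a description of letters, not of binding. No window of Gabrp held the word, so it is not shared by all of these genes. The pieces are shown in the direction of the gene, with the match or its reverse complement in capitals:
Ltf, chr9:111019206-111019235, plus strand: aggcaggcctaTTGGGCAAtagggtggggc
Lcn2, chr2:32387937-32387966, minus strand: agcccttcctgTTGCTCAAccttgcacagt
Il33, chr19:29945694-29945723, plus strand: tatcgctccatTTGCATAActttactcatc
The Lcn2 piece lies within the Lcn2 coordinates given above and overlaps an annotated exon of Lcn2. The Ltf and Il33 pieces overlap no annotated exon. An NF-kB consensus word was in 0 of these 5 windows and in 4.51% of all windows, the AP-1 word TGANTCA in 0 and in 7.81%, and the STAT word TTCCNGGAA in 0 and in 1.15%. The words were distributed otherwise in front of the genes with the largest differences. In the 18 windows of 15 of the 20 genes with the highest ratios, AP-1 was in 7 and C/EBP in 4, and in the 26 windows of 16 of the 20 with the lowest ratios, AP-1 was in 5 and C/EBP in 1. Cebpb, the gene of a C/EBP factor, stood at 511.5 CPM (95% Poisson interval 488.4 to 535.5) in the Ltf/Lcn2 cells and 266.2 CPM (260.2 to 272.3) in reference cells, a ratio of 1.92 that missed the 2-fold line used below.

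The amounts of the 5 genes among the chosen cells are a description, since they made the choice. Lcn2 gave 9582 UMIs, 56.9% of all selecting UMIs, and was detected in 82.2% of the cells, with up to 114 UMIs in 1 cell. Gabrp was detected in 72.5%, Il33 in 61.8%, Ltf in 54.8% and Aldh1a3 in 36.2%. The median cell held 10 selecting UMIs (quartiles 6 and 20, highest 147). Of the 1031 cells, 347 had 2 of the genes, 343 had 3, 259 had 4 and 82 had all 5. The most frequent combination was Ltf, Lcn2, Gabrp and Il33 without Aldh1a3, in 142 cells, followed by Ltf with Lcn2 alone, in 110 cells.

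The choice asks for a minimum number of molecules, and so it favours deeper cells. The median Ltf/Lcn2 cell had 3325 UMIs (range 1016 to 10792) and 1601 genes, and the median reference cell 2784 UMIs and 1431 genes. The median mitochondrial share was 3.54% against 2.64%. When every cell was thinned by random draws to 1500 UMIs, leaving out 38 and 1402 shallower cells, the median gene number was 899 and 909. Shares of cells given below are at this thinned depth unless stated.

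The 110 cells just inside the choice, with 4 UMIs, and the 145 cells just outside it, with 3 UMIs and 2 or more genes, differed less from each other than the sets did as a whole, by genes that played no part in the choice. The glutathione transferase Gsto1 stood at 2104 CPM just inside and 1433 CPM just outside, Krt19 at 270.9 and 215.5 CPM, and the acidic whey protein gene Wfdc18 at 2850 and 3481 CPM. A further 200 cells held 4 or more UMIs of a single selecting gene, Lcn2 in 81.0% of them, and were left out. Their Gsto1 level was 983 CPM and their Wfdc18 level 3522 CPM.

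To see each gene in cells it had not chosen, the choice was repeated with 4 genes and the fifth was read. Ltf reached 531 CPM (506 to 557) in 872 cells chosen by the other 4 genes and 7.29 CPM (6.33 to 8.35) in cells with 0 UMIs of those 4, a ratio of 72.8 (95% interval 63.0 to 84.6). Gabrp had a ratio of 44.6 (40.1 to 49.6), Il33 of 32.1 (28.8 to 35.8), Lcn2 of 31.4 (30.0 to 32.8) and Aldh1a3 of 15.3 (13.3 to 17.5). At equal depth, an Ltf UMI was found in 33.6% of the cells chosen without it and in 0.711% of the others, and an Lcn2 UMI in 62.5% and 6.34%. Each of the 5 genes was thus more frequent in cells picked by the rest, with the smallest ratio of levels for Aldh1a3. This is a description and no independent test, because the selecting genes were chosen with earlier results of these data known. Every cell chosen by 4 of the genes also met the full choice, so no new cells were read.

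**Figure D1:**
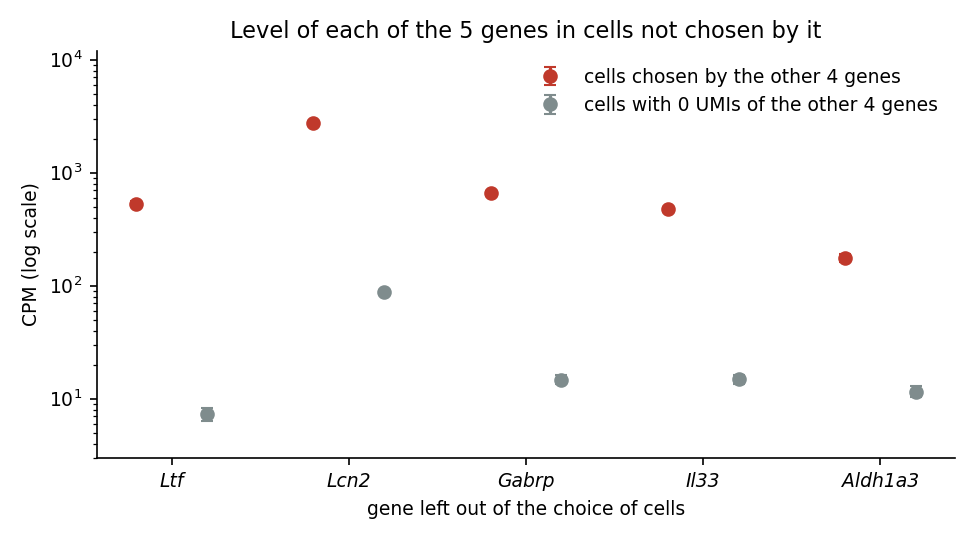
Level of each selecting gene (CPM, log axis) in cells chosen by the other 4 genes (red) and in cells with 0 UMIs of the other 4 (grey), with exact 95% Poisson intervals, many of them smaller than the points. Every red point lies above its grey point, by 15.3-fold for Aldh1a3 to 72.8-fold for Ltf. The selecting genes were chosen with earlier results of these data known, so the gaps are a description.

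Taken in pairs at the thinned depth, Ltf was mostly found with Lcn2. Of 504 epithelial-gated cells with an Ltf UMI, 68.7% (64.4% to 72.7%) also had an Lcn2 UMI, against 9.56% of cells without Ltf. In the other direction, 24.8% of 1394 cells with an Lcn2 UMI had an Ltf UMI. Gabrp and Il33 went together about equally both ways. An Il33 UMI was in 36.0% of cells with Gabrp and 3.93% of cells without it, and a Gabrp UMI in 39.3% of cells with Il33 and 4.50% of cells without it.

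Free RNA in the droplets was gauged with 1221 mesenchymal cells, those with 5 or more UMIs of the gate genes, which had a median of 3492 UMIs. Lcn2 was found in 1.64% (1.00% to 2.52%) of them unthinned, Gabrp and Ltf in 0.410% each, Aldh1a3 in 1.56% and Il33 in 4.59%. Only 3 of these cells, 0.246%, would have met the UMI part of the choice. In cells chosen by the other 4 genes, the unthinned share with a UMI was between 30.4% for Aldh1a3 and 72.7% for Lcn2, with median depths from 3268 to 3540 UMIs.

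Across the other genes, 8773 reached 10 CPM in at least 1 of the sets and were compared, leaving out the selecting and gate genes. A gene was called past 2-fold at a ratio of at least 2 with Poisson intervals that did not overlap. Of the genes compared, 329 were higher in the Ltf/Lcn2 cells, which is 3.75%, and 315 were lower, which is 3.59%. The median ratio over all of them was 0.945. Counts for gene lists below are read against these shares. When a rare gene passes the minimum through 1 set alone it has to differ, so the list counts describe genes at measurable levels and not whole lists. For this reason 381 genes were compared only through their level in the Ltf/Lcn2 cells. Without them, an alternative added after seeing the data, 174 of 8392 genes with at least 10 CPM in reference cells were higher, which is 2.07%. The median ratio was then 0.932. Genes that reached 10 CPM only in reference cells stayed in, so this filter acts on the higher side alone.

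**Figure D2:**
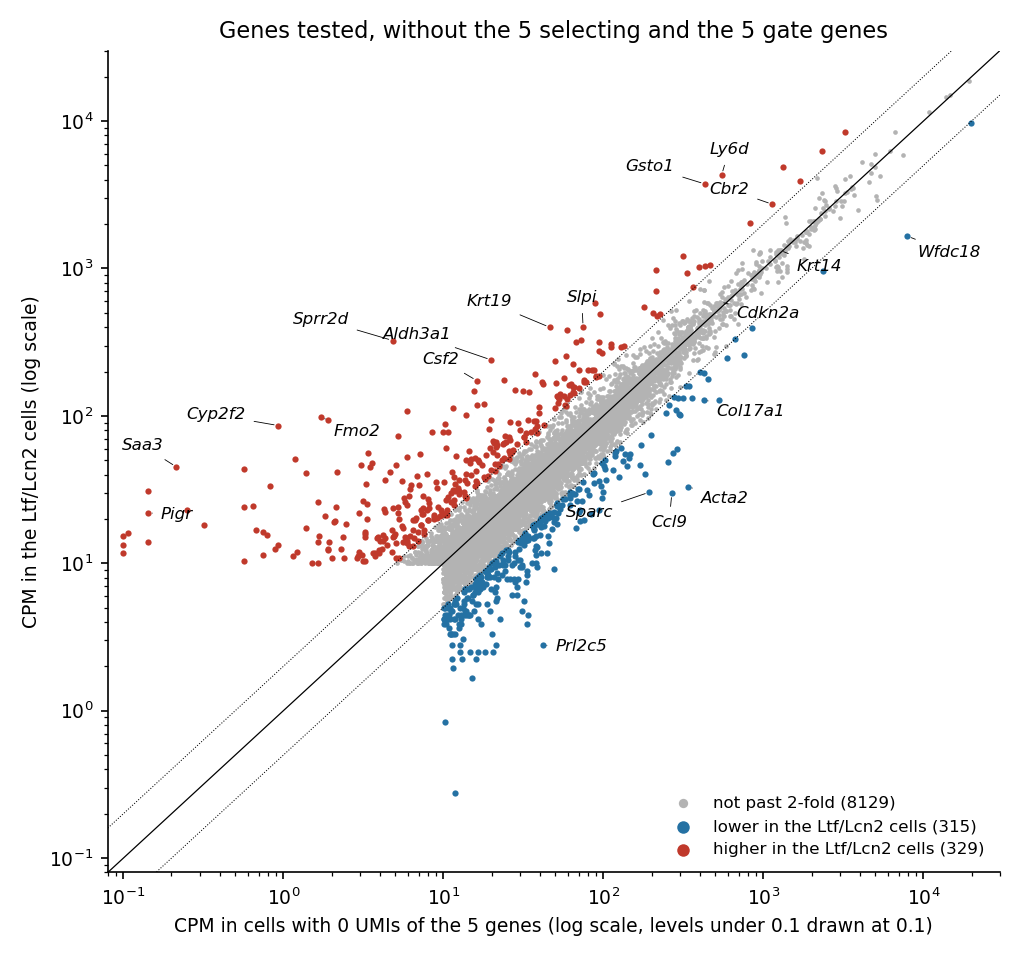
CPM of the 8773 compared genes in reference cells (x axis, log) and in the Ltf/Lcn2 cells (y axis, log). Red points are the 329 genes called higher, blue the 315 called lower, the solid line marks equal levels and the dotted lines a 2-fold difference. Gsto1 and Ly6d stand far above the line at high levels, and Wfdc18 far below it.

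Enzymes and surface proteins were among the genes found in many more of the Ltf/Lcn2 cells. Gsto1, a glutathione transferase, stood at 3744 CPM (3680 to 3807) against 431 CPM (423 to 439), an 8.68-fold difference (8.47 to 8.90), and was found in 83.9% of the cells against 42.5%. Ly6d, a surface protein of committed squamous and lymphoid cells, stood at 4315 CPM against 549 CPM, 7.86-fold higher (7.69 to 8.04), in 77.7% against 28.4% of cells. Aldh3a1, an aldehyde dehydrogenase abundant in cornea and upper gut epithelium, was at 239.7 CPM against 19.9 CPM, 12.04-fold higher, in 26.2% against 2.46%. The 10 richest cells gave 8.70% of the Gsto1 UMIs and 6.25% of the Ly6d UMIs, so these differences were spread over many cells.

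The highest ratios belonged to rarer transcripts. Cyp2f2, a cytochrome P450 of airway club cells, was at 86.0 CPM against 0.929 CPM, 92.6-fold higher (62.0 to 144), in 10.98% against 0.192% of cells. Fmo2, a flavin monooxygenase, was 57.1-fold higher (42.2 to 79.0), in 11.8% against 0.192%. Adam28, a surface metalloprotease, was 18.1-fold higher (15.0 to 21.8), in 10.4% against 0.707%, and the membrane protein Pdzk1ip1 14.0-fold higher (11.4 to 17.3), in 8.76% against 0.803%. The surface antigen Psca was 49.4-fold higher (36.9 to 67.3), Prr15l 41.0-fold, Oit1 29.4-fold and the arginase Arg1 16.6-fold (12.9 to 21.4), with 44% of the Arg1 UMIs from 10 cells. These genes were therefore found in a minority of the Ltf/Lcn2 cells at this depth but hardly in the reference cells. Their ratios were smaller against all other epithelial-gated cells, in-between cells included. They were then 32.4 for Cyp2f2, 22.3 for Fmo2, 28.1 for Psca, 18.4 for Prr15l, 14.9 for Oit1, 10.9 for Adam28 and 8.36 for Arg1. Of the genes described further below, the same held for Hp (73.7), Pigr (59.9), Duoxa2 (53.9), Saa3 (45.7), Ifit1bl1 (38.5), Sprr2d (34.9), Krt6b (22.1), Cybb (17.4), Krt13 (17.1), S100a9 (15.7), Sprr2e (9.98), Il1f9 (8.57) and Il1f6 (7.27).

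Other large ratios rested on few cells. Saa3, an acute-phase serum amyloid, had 162 UMIs, of which 96.9% came from 10 cells, and a UMI in 0.906% of the cells. The same held for BC037156, with 98.7% of 150 UMIs in 10 cells, and for S100a9, a calcium-binding protein of neutrophils and stressed keratinocytes, with 80.2% of 86. Krt6b drew 69.2% of its UMIs from 10 cells, Cybb, the NADPH oxidase subunit, 53.4%, and Krt13 50.6%. The ratios of these genes, from 19.2 for BC037156 to 210.4 for Saa3, each rest on few cells, and these differ from gene to gene by the selecting gene that leads in them. Krt13 and Krt6b were highest in cells led by Ltf, where Saa3 and BC037156 had 0 UMIs.

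Genes of secretory and antimicrobial defence were read next, and many were compared only because of the Ltf/Lcn2 cells. Of 32 genes of secretory epithelium, 8 were compared, 5 were higher and none lower, and the median ratio was 2.36. Pigr, which carries immunoglobulin A across epithelia, was at 22.0 CPM against 0.143 CPM, 153.9-fold higher (57.8 to 579). Muc4, a membrane mucin, had 42 UMIs in the Ltf/Lcn2 cells, 50% of them from 10 cells, and 0 in reference cells. With the reference set to a floor of 3 UMIs over the whole set, Muc4 was 109-fold higher (34.9 to 550). Slpi was at 400.4 CPM against 74.7 CPM, 5.36-fold higher (5.01 to 5.74), and Cbr2 at 2728 CPM against 1136 CPM, 2.40-fold higher. Clu, a secreted chaperone, was nearly level at 2103 and 1926 CPM, and ceruloplasmin, Cp, differed by 1.63-fold. Of the antimicrobial list, 12 of 32 genes were compared, 9 were higher and 1 was lower, with a median ratio of 5.42. Among genes with at least 10 CPM in reference cells, 3 of 6 secretory genes (Cbr2, Slpi and Wfdc2) and 4 of 7 antimicrobial genes (Cd14, Pglyrp1, Slpi and Wfdc2) were higher, with median ratios of 1.97 and 2.31. Slpi and Wfdc2 are in both lists. Outside both lists, the hemoglobin scavenger haptoglobin, Hp, was at 31.2 CPM against 0.143 CPM, with 46.4% of its UMIs from 10 cells.

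Within that group the peroxide-generating pair split. Duoxa2, the maturation factor of the dual oxidase Duox2, was at 22.8 CPM against 0.250 CPM, 91.3-fold higher (42.4 to 234). Its neighbour Duoxa1, which serves Duox1, was at 13.1 CPM against 25.5 CPM, a 1.95-fold lower level that missed the 2-fold line. The lipopolysaccharide sensors Lbp and Cd14 were 11.5-fold and 4.67-fold higher, while their receptor Tlr4 stood at 15.9 against 12.1 CPM with overlapping intervals. The single lower gene was the beta-defensin Defb1, at 31.5 CPM against 78.6 CPM, 2.496-fold lower (2.07 to 3.04). In the complement list, with 4 of 14 genes compared, C3 was 2.49-fold higher (2.19 to 2.82) and the protease C1s1 and the inhibitor Cd59a were lower, by 2.11-fold and 2.28-fold. C1s1 lost its call under 6 of 16 other settings and Cd59a under 3.

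Targets of NF-kB and interleukin 17 signalling were the other large group. Of 30 listed genes 26 were compared, 12 were higher and none was lower, with a median ratio of 1.85. The granulocyte growth factors Csf2 and Csf3 stood at 173.5 CPM against 16.2 CPM and 113 CPM against 11.4 CPM, 10.7-fold (9.48 to 12.1) and 9.89-fold (8.52 to 11.5) higher, in 16.6% against 1.498% and 11.1% against 1.47% of cells. The chemokine Ccl20 was 8.63-fold higher and the metalloreductase Steap4 6.53-fold. The remaining called genes were Cxcl1, Cxcl2, Cxcl3, Cxcl5, Nfkbiz, Tnf, Tnfaip2 and Zc3h12a. Nfkbia, the inhibitor of NF-kB, differed by 1.33-fold, at 1269 and 953.1 CPM. Chosen after their values were seen, the neutrophil chemokines Ppbp and Cxcl5 stood at 8441 CPM against 3233 CPM and 4892 CPM against 1334 CPM, 2.61-fold and 3.67-fold higher.

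In the interleukin 1 family, to which the selecting gene Il33 belongs, 10 of 15 genes in the matrix were compared, 5 were higher and 1 was lower. With at least 10 CPM in reference cells, 3 of 7 genes were higher. Il1f9 (interleukin 36 gamma) was 15.8-fold higher (10.95 to 22.9) and Il1f6 (interleukin 36 alpha) 11.3-fold higher (8.04 to 15.97). Il1a was at 237.2 CPM against 49.6 CPM, 4.78-fold higher, and its antagonist Il1rn at 144.2 CPM against 34.3 CPM, 4.21-fold higher. The lower gene was Il1rl1, the receptor of Il33, with 10 UMIs in the Ltf/Lcn2 cells. Its level was 2.78 CPM (1.34 to 5.12) there and 21.4 CPM (19.8 to 23.2) in reference cells, 7.70-fold lower (4.16 to 16.1). Il18r1 stood at 27.6 against 50.1 CPM, a 1.82-fold lower level that missed the line.

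The early stress genes, which respond within minutes to handling of cells, moved with these groups. Of 14 listed, 13 were compared, 9 were higher and none was lower, with a median ratio of 2.27. Fos was at 78.2 CPM against 9.90 CPM, 7.90-fold higher (6.67 to 9.37), Dusp1 4.26-fold higher, Atf3 2.91-fold and Btg2 2.68-fold. Junb stood at 519.6 and 285.6 CPM, 1.82-fold apart. Together the 14 genes made up 2873 CPM against 1523 CPM, and 5 or more of their UMIs were in 42.1% (39.0% to 45.2%) of the Ltf/Lcn2 cells against 11.97% (11.3% to 12.7%) of reference cells and 9.94% of mesenchymal cells. Without the 25% of cells richest in these genes, an alternative added after seeing the data, 405 Ltf/Lcn2 and 7943 reference cells remained. Then 282 genes were higher and 325 lower, 249 and 217 of them among those called before. Csf2, Csf3, Gsto1, Ly6d, Cyp2f2 and Fmo2 were still called, and Muc4, Cybb, BC037156, Krt15, Dusp1, Btg2, Atf3, Oasl2, Ankrd1, Flt1, C1s1, Cd59a, Mki67 and Cdc20 were not. Several ratios kept their call at a smaller size, Pigr at 75.96, Ifit1bl1 at 30.4, Krt6b at 32.6, Hp at 136.7, Pdzk1ip1 at 8.84, Fos at 5.11 and Arg1 at 3.54, and that of Sprr2e was larger, at 40.5. Fos, Dusp1, Btg2 and Atf3 are themselves among the genes by which the cells were removed, so their smaller ratios were built into this setting. The part of the early stress genes in the other differences was not tested beyond this.

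Enzymes that handle aldehydes and oxidants formed a further group. Of 24 genes 21 were compared, 11 were higher and none was lower, with a median ratio of 2.30. With at least 10 CPM in reference cells it was 8 of 17, with a median of 1.78. Beside Gsto1, Aldh3a1 and Cyp2f2, the steroid dehydrogenase Akr1c18 was 19.8-fold higher (11.9 to 34.1). The glutathione peroxidase Gpx2 was level, at 781 and 794.1 CPM, and Gclm, a subunit of glutathione synthesis, at 108 and 96.0 CPM. In retinoid metabolism, the pathway of the selecting gene Aldh1a3, 2 of 12 compared genes were higher and none was lower. Aldh1a1 was at 41.5 CPM against 4.65 CPM, 8.93-fold higher (7.01 to 11.4), and Aldh1a7 6.10-fold, a call lost under 8 of 16 other settings. Both were under 10 CPM in reference cells. The retinol dehydrogenase Rdh10 was 1.68-fold higher, short of the line.

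Iron handling apart from Ltf and Lcn2 was mostly not called. Of 23 genes 14 were compared, 1 was higher, Steap4, and none was lower, with a median ratio of 1.10. The ferritin chains Fth1 and Ftl1 stood at 4085 against 2153 CPM and 2997 against 2223 CPM, 1.90-fold and 1.35-fold apart. In ion and fluid transport, the class of Gabrp, 3 of 10 compared genes were higher and none was lower, namely the water channel Aqp3 (6.62-fold), the amino acid transporter Slc6a14 (3.97-fold, 3.34 to 4.71) and carbonic anhydrase Car2 (3.24-fold). Aqp3 lost its call under 2 other settings. Steap4, Aqp3 and Car2 were under 10 CPM in reference cells. The chloride-loading cotransporter Slc12a2 stood at 229.4 against 115.8 CPM, a 1.98-fold difference just short of the line.

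**Figure D3:**
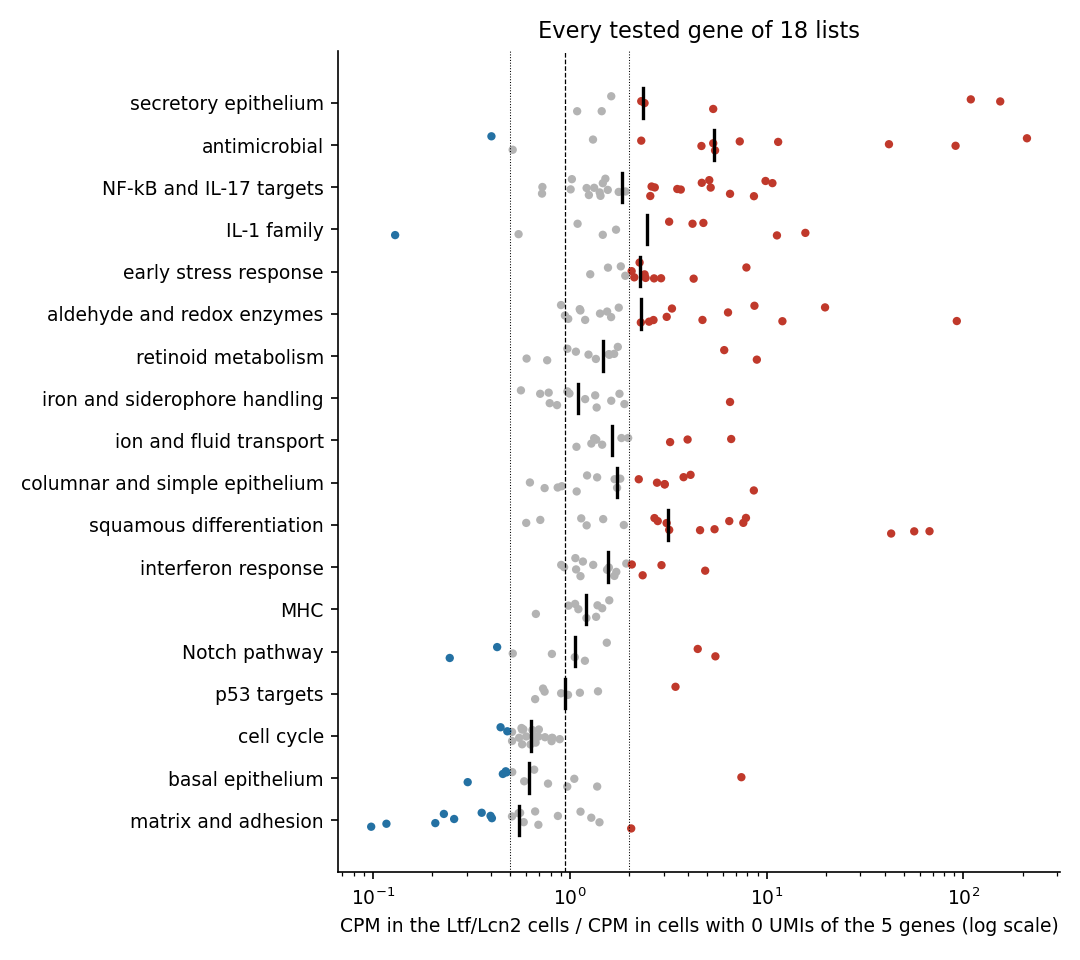
Ratio of CPM in the Ltf/Lcn2 cells to CPM in reference cells (x axis, log) for every compared gene of 18 lists. Red points were called higher, blue lower and grey neither, black bars are list medians, the dashed line is the median of all compared genes, 0.945, and dotted lines mark 2-fold. The antimicrobial list has the highest median, 5.42, and the matrix and adhesion list the lowest, 0.550.

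Keratins of 2 kinds were higher in the same set. Of the columnar and simple epithelium list, 17 of 26 genes were compared, 7 were higher and none was lower, with a median ratio of 1.74. Krt19 was at 399 CPM against 46.3 CPM, 8.62-fold higher (7.99 to 9.30), in 37.9% against 6.06% of cells. Krt18, another keratin of simple epithelia, was at 548 CPM against 180.4 CPM, 3.04-fold higher. The surface protein Plet1 was 4.11-fold and the tight junction gene Cldn3 3.79-fold higher. Epcam was nearly level at 1334 and 1228 CPM. The endodermal regulators Gata4, Hnf4a and Cdx2 had 0 UMIs in the Ltf/Lcn2 cells.

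Of the squamous differentiation list, 18 of 33 genes were compared, 12 were higher and none was lower, with a median ratio of 3.16. With at least 10 CPM in reference cells it was 5 of 11, with a median of 1.88. Sprr2d, a cornified envelope protein, was at 324.7 CPM against 4.82 CPM, 67.3-fold higher (56.3 to 81.0), in 10.8% against 0.348% of cells, with 40.4% of its UMIs from 10 cells. Krt13, the keratin of suprabasal esophageal cells, was at 50.7 CPM against 1.18 CPM, 43.0-fold higher (29.5 to 64.3). Reads of Sprr2d and Sprr2e, which was 15.4-fold higher, and of Krt6b and Krt6a can be shared between near-identical copies, so their split is uncertain. Not every late squamous gene followed. Sprr1a stood at 127 against 211 CPM, 1.66-fold lower, Spink5 1.48-fold higher, and the terminal markers Crnn and Krtdap had 0 UMIs in the Ltf/Lcn2 cells. A UMI of Krt13 or Sprr2d was found in 14.1% (11.99% to 16.4%) of the Ltf/Lcn2 cells, 0.515% of reference cells and 0.0822% of mesenchymal cells.

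The lists with the most lower genes were those of attachment to the basement membrane. Of the matrix and adhesion list, 19 of 21 genes were compared, 8 were lower and 1 was higher, with a median ratio of 0.550. The lower genes included Acta2 and Tagln, and also the anchoring collagen Col7a1, the fibronectin gene Fn1, Tgfbi and Tpm1, which are named here after their values were seen. The higher gene, Ankrd1, lost its call under 6 other settings. Of the basal epithelium list, 12 of 14 genes were compared, 4 were lower and 1 was higher, with a median ratio of 0.624. Col17a1, the hemidesmosomal collagen, was at 128.6 CPM against 424 CPM, 3.30-fold lower (3.003 to 3.62). The other lower genes of this list, Dst, Itga3 and Itgb4, were 2.18-fold, 2.11-fold and 2.09-fold lower.

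The basal keratins did not share that difference. Krt14 stood at 1334 and 1264 CPM and Krt17 at 1522 and 1565 CPM. Krt14 was detected in fewer of the Ltf/Lcn2 cells, 64.1% against 76.0%, and Krt17 in 65.2% against 80.6%. Equal totals in fewer cells mean that the positive cells held more of these keratins. Krt15 was called higher, at 18.4 CPM against 2.47 CPM, with 66.7% of its UMIs from 10 cells. Its call was lost with at least 1000 genes and 2000 UMIs a cell and without the cells richest in early stress genes, where the ratio was 3.09.

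The lowest ratios of single genes included several of contractile and matrix function. Acta2, smooth muscle actin, was at 33.1 CPM (27.5 to 39.7) against 337.6 CPM (330.9 to 344.5), 10.2-fold lower (8.50 to 12.3), and Tagln, transgelin, was 8.53-fold lower on 14 UMIs. The collagen IV chains Col4a3 and Col4a4 were 4.86-fold and 5.18-fold lower, Sparc 6.37-fold and tenascin C, Tnc, 4.12-fold. The chemokine Ccl9 was at 29.8 CPM against 267.9 CPM, 8.99-fold lower (7.43 to 10.99). Prl2c5, one of a set of near-identical placental hormone genes, was 15.0-fold lower on 10 UMIs, and its assignment among the copies is uncertain. Wfdc18, a secreted whey acidic protein, was at 1658 CPM (1617 to 1701) against 7923 CPM (7890 to 7956), 4.78-fold lower (4.66 to 4.90), in 38.8% against 69.1% of cells. The other genes among the 20 lowest ratios were Clstn2, Tll1, Ctsw, Stac, Prss23, Ctnnal1, Fbln5, E230016K23Rik and Ctla2a, from 8.17-fold lower for Clstn2 to 4.07-fold lower for Ctla2a. Tmsb4x, the actin-binding thymosin and the most abundant of all called genes, was chosen after its value was seen. It stood at 9774 CPM against 19869 CPM, 2.03-fold lower, and was found in 99.4% and 99.0% of cells.

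A mammary luminal progenitor list was read because Ltf, Lcn2 and Aldh1a3 are known from that cell type. Only 7 of its 18 genes were compared, 4 were higher and 1 was lower. Cd14 and Plet1 were given above, and Kit, a growth factor receptor, and Plb1 were 2.24-fold (1.94 to 2.57) and 2.16-fold higher. Plb1 lost its call without dividing cells. The lower gene was Wfdc18, and the transcription factor Elf5 and the caseins Csn2 and Csn1s1 had 0 UMIs.

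Of 9 compared genes of the Notch pathway 2 were higher, 2 were lower and 5 were not called. The receptor Notch3 was 4.47-fold higher (3.43 to 5.81) and the feedback gene Nrarp 5.50-fold (4.11 to 7.33), while the ligands Jag2 and Jag1 were 4.07-fold (2.89 to 5.90) and 2.33-fold (2.11 to 2.60) lower. Hes1 differed by 1.20-fold and the receptor Notch1 stood at 26.5 and 24.9 CPM with overlapping intervals. Notch3 and Nrarp were compared only through their level in the Ltf/Lcn2 cells, and none of the 7 pathway genes with at least 10 CPM in reference cells was higher. The engineered genes were not called. Trp53 stood at 59.9 against 48.4 CPM and Cdkn2a at 594.2 against 533.6 CPM. Counts from transcript ends do not show whether either gene was inactivated. Of 8 compared p53 targets 1 was higher, Cdkn1a, the cell cycle inhibitor p21, at 223.6 CPM against 64.8 CPM, 3.45-fold (3.17 to 3.75), with a median ratio of 0.943 over the list.

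Most cell cycle genes were not called. Of 22 compared, 2 were called lower, Mki67 (2.24-fold) and Cdc20 (2.07-fold), none was higher, and the median ratio was 0.640. Both calls were lost under 3 other settings, among them the one without dividing cells. That setting removes cells by mitosis genes that include Mki67 and Cdc20, so this loss was built in. At the thinned depth, 3 or more UMIs of 12 mitosis genes were in 8.16% (6.53% to 10.0%) of the Ltf/Lcn2 cells and 14.9% (14.2% to 15.7%) of reference cells, and 3 or more of 12 replication genes in 1.51% and 4.03%. Of the interferon response list, 4 of 16 compared genes were higher and none was lower, led by Ifi27l2a (4.88-fold), Ifit1 (2.93-fold) and Ifit3 (2.35-fold). With at least 10 CPM in reference cells it was 2 of 14. Ifit1bl1, outside the list, was 76.0-fold higher (45.3 to 136). No gene of the antigen presentation (MHC) list was called of 9 compared, with B2m at 809.5 and 731.1 CPM.

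Neutrophils also express Ltf, Lcn2 and S100a9, so their markers were read. Of 14 neutrophil genes only S100a9 reached the minimum, and 9 had 0 UMIs, among them the granule genes Ngp, Elane, Mpo, Camp and Mmp8 and the receptors Cxcr2 and Csf3r. The list summed to 30.4 CPM against 1.36 CPM in reference cells. Without S100a8 and S100a9, the list gave 11 UMIs in 8 of the 1031 cells, 0.776% unthinned (0.336% to 1.52%), against 0.216% of reference and 1.39% of mesenchymal cells. Of 15 genes of other immune cells, 13 had 0 UMIs, including Ptprc, the pan-leukocyte marker CD45. For Ptprc, 0 of 1031 cells (3 counts of the total) allows up to 0.291% of cells with a UMI, which is no limit on cells that express it. That list summed to 10.6 CPM against 7.83 CPM. Of 8 endothelial genes Flt1 alone was compared and was called higher, at 2.0003-fold, and lost its call under 6 other settings, while Cdh5, Emcn and Cldn5 had 0 UMIs. Of 12 further mesenchymal genes 5 had 0 UMIs and Zeb2 alone was compared, at 17.5 against 9.47 CPM and not called. Neither Foxj1 of ciliated cells, at 28.4 and 36.6 CPM, nor the tuft cell gene Dclk1 was called. The endothelial list summed to 82.1 against 43.3 CPM, nearly all Flt1, and the mesenchymal list to 22.3 against 27.8 CPM.

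The added sequences carried by the culture were at like summed levels in both sets. GFP stood at 14970 CPM in the Ltf/Lcn2 cells and 14652 CPM in reference cells, and the barcode-associated sequence Scar at 14677 and 13912 CPM. At equal depth the median cell of either set held 16 GFP and 14 Scar UMIs. Among the Ltf/Lcn2 cells, the 10 richest cells gave 18.7% of the GFP UMIs and 22.1% of the Scar UMIs. A UMI of the 4 Y chromosome genes was in 18.5% and 17.7% of cells.

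The Ltf/Lcn2 cells were also read by their amount of the selecting genes. They were split into low, middle and high groups of 344, 343 and 344 cells by the share of UMIs from the 5 genes (medians 0.157%, 0.336% and 0.833%), and the split is a description because it uses those genes. Over these 3 groups, 16 of the 20 genes with the highest ratios were in rising order and 9 of the 20 with the lowest were in falling order. Their step from reference cells to the Ltf/Lcn2 cells was fixed by the way they were picked. The in-between cells lay beyond the reference cells in the direction of the Ltf/Lcn2 cells for all 20 of the first and 19 of the second. That step uses the same reference cells by which the genes were picked. Order was read for named genes only, so no share over all compared genes stands beside these counts. They therefore do not set these genes apart from others. Saa3 and BC037156 rest on few cells, and so does their order. Gsto1 went from 431 CPM through 917, 2369 and 3727 to 5558 CPM, and Fmo2 from 1.72 through 14.5, 28.4 and 92.2 to 195 CPM. Wfdc18 went from 7923 CPM through 6111, 2580 and 1510 to 605 CPM.

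**Figure D4:**
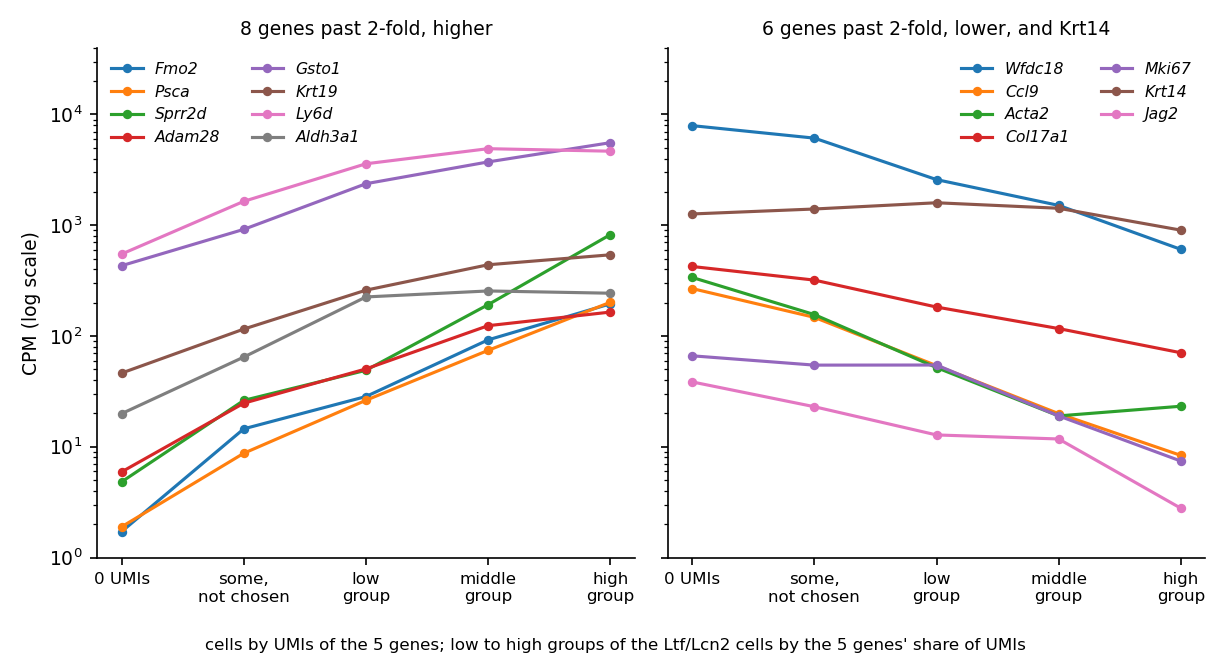
CPM (log axis) in reference cells, in cells with some UMIs of the 5 genes that were not chosen, and in low, middle and high groups of the Ltf/Lcn2 cells by the share of UMIs from the 5 genes. Left, 8 genes called higher; right, 6 genes called lower and Krt14, which was not called. Krt19 climbs from 46.3 to 540 CPM, and Col17a1 falls from 424 to 70.6 CPM.

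Cell cycle, keratin and inflammatory genes also had different levels in the low and the high group. Mki67 was at 54.7 CPM in the low group, near the 66.2 CPM of reference cells, and at 7.43 CPM in the high group. Ube2c, a mitotic ubiquitin ligase, went from 265.6 to 67.8 CPM and Top2a from 159.1 to 26.9 CPM. Krt14 and Krt17 peaked in the low group, at 1595 and 2075 CPM, and stood at 902.5 and 890.4 CPM in the high group. Ccl20 went from 27.0 to 210.8 CPM, Saa3 from 2.13 to 142.1 CPM and Sprr2d from 49.0 to 821.7 CPM between the low and the high group. Ly6d, Aldh3a1 and Krt18 reached their level early and changed little over the 3 groups, with Aldh3a1 at 225.1, 255 and 243.3 CPM. The median mitochondrial share went from 3.03% through 3.51% to 4.02%, and Fos from 44.7 through 76.0 to 124.4 CPM, along the same order. Median depth went from 3865.5 UMIs in the low group through 3071 to 3065.5 UMIs in the high group, and a cell's total UMIs enter the split. The part of depth, mitochondrial share and Fos in the order was not tested.

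The cells also differed by which selecting gene led in UMIs. Lcn2 led in 552 cells, Gabrp in 143, Il33 in 116, Ltf in 97 and Aldh1a3 in 31, and 92 had a tie. Cells led by Aldh1a3 and tied cells were not read by gene. The 97 cells led by Ltf had the lowest median depth, 2476 UMIs, and the highest median mitochondrial share, 4.16%. They stood out by Krt13 (181.5 CPM against 10.1 in cells led by Lcn2, 17.9-fold, 10.3 to 32.4), Arg1 (256.5 CPM), Adam28 (430.1 CPM), Psca (280.2 CPM), Fmo2 (248.6 CPM) and Pigr (63.1 CPM). Of the 4 groups these 6 genes were highest in the cells led by Ltf. The added sequences GFP and Scar were also highest there, at 20093 and 20729 CPM. In the other groups GFP was between 12478 and 13123 CPM and Scar between 10890 and 13255 CPM.

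Cells led by Lcn2 had more of the secreted inhibitor Slpi, at 540.5 CPM against 86.8 CPM in cells led by Ltf, 6.23-fold (4.09 to 9.98), and of Sprr2d, Ccl20, Csf3 and the interferon-induced Bst2 (482.9 CPM). Of the 162 Saa3 UMIs 161 were in cells led by Lcn2, and cells led by Ltf, Gabrp or Il33 had 0. Krt14 was lowest there, at 812.6 CPM. Cells led by Il33 had the most Krt14 (2284 CPM), Krt17 (2377 CPM), Aldh3a1 (511.5 CPM), Aldh1a1 (88.2 CPM) and Spink5 (798.2 CPM), with Krt14 nearly as high, at 2237 CPM, in cells led by Ltf. Aldh1a1 was 6.12-fold higher (3.67 to 10.4) in cells led by Il33 than in cells led by Lcn2. Its interval overlapped those of cells led by Gabrp (74.1 CPM) and by Ltf (63.1 CPM). Cells led by Gabrp had low Pdzk1ip1 (21.2 CPM) and the most Krt18 (664.7 CPM), with an interval that overlapped that of cells led by Lcn2. Pigr was low both in cells led by Gabrp (5.29 CPM) and in cells led by Il33 (6.61 CPM), on 3 UMIs each. Acta2 and Tnc showed no group apart from the others by intervals, with Tnc between 112.5 and 136.1 CPM.

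**Figure D5:**
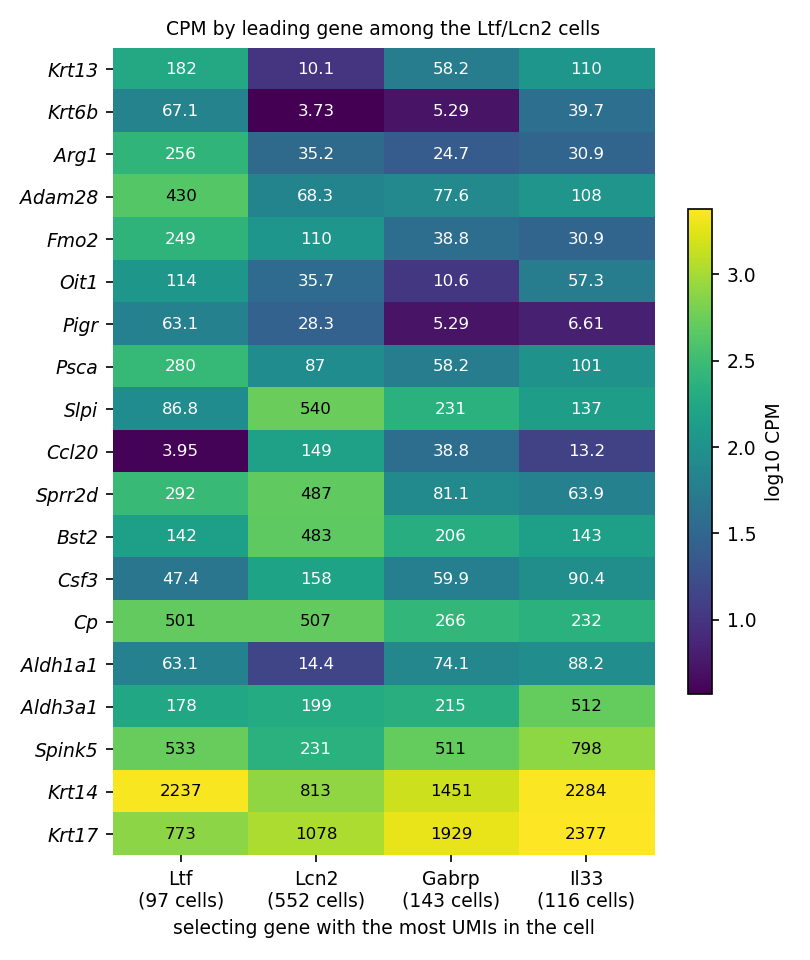
CPM of 19 genes in Ltf/Lcn2 cells grouped by the selecting gene with the most UMIs (columns, with cell numbers), coloured by log10 CPM. Krt13 is at 181.5 CPM in cells led by Ltf and 10.1 CPM in cells led by Lcn2, and Krt17 is highest, at 2377 CPM, in cells led by Il33.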

How the data were processed

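The deposited matrix holds UMI counts per gene and cell barcode, whole numbers written by the authors with CellRanger 8.0.1 per the file headers. The build was mm10 per the submitters' processing notes, which also name Scanpy 1.8.2. The gene annotation behind the counts is not given in the sources used here, nor is which of the 3 libraries (gene expression, barcode, scar) supplied the reads. All cells were therefore handled as 1 sample.

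The members and gene lists were chosen with earlier results of these data known. Counts were summed over the cells of a set and scaled to CPM, with exact 95% Poisson intervals, exact conditional binomial intervals for ratios and Clopper-Pearson intervals for shares (numpy 2.4.6, scipy 1.17.1). A set with fewer than 3 UMIs was set to 3 for ratios. Genes named are the selecting and engineered genes, the 20 largest ratios in each direction with at least 20 CPM, and per list up to 4 called genes in each direction and 2 others. Doublets were neither called nor removed; leaving out the top 10% of cells by UMIs was one of the alternatives. Counts of mitosis and replication genes replaced the planned cell cycle phase calls. The calling step was tested on simulated data. Some genes are not reported here. The barcode and scar sequences were not analysed here beyond their UMIs.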

Additional observations from a re-analysis of the deposited data

How the results depend on the processing

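Among the 95 named genes that were called, no ratio changed direction in the 16 settings that gave a new ratio. The direction of the other called genes was not followed over the settings. The share of epithelial-gated cells that are Ltf/Lcn2 cells, 7.87%, depends on the choice itself. It was 3.98% with at least 8 UMIs and 3 genes, 5.39% with the choice made after thinning, 8.70% in cells of 2000 to 5000 UMIs, 9.15% with at least 1000 genes and 2000 UMIs, 7.18% without the top 10% of cells by UMIs and 8.38% without dividing cells. With 1 selecting gene dropped, settings chosen after seeing the data, it was 6.66% (Ltf), 5.15% (Lcn2), 6.24% (Gabrp), 6.63% (Il33) and 7.21% (Aldh1a3), and without the 25% of cells richest in early stress genes 4.12%. The counts of 329 higher and 315 lower genes were 172 and 95 at 3-fold, 144 and 88 with at least 50 CPM, and 629 and 572 with no minimum. With at least 10 CPM in reference cells, a setting added after seeing the data, they were 174 and 315, and the higher share of all calls was 35.6%. Lower genes already had to reach 10 CPM in reference cells, so their count could not change and this share could only fall. With 8 UMIs and 3 genes 551 were lower. The higher share of all calls was 51.1%, and 64.4% at 3-fold and 62.1% with at least 50 CPM. Of 95 named genes that were called, 78 kept the call in all 16 settings that gave them a new ratio. Of the 145 named ratios, 22 moved by over 1.5 times with 8 UMIs and 3 genes, 20 against all other epithelial-gated cells, 20 without the cells rich in stress genes, 17 with the choice made after thinning and 15 with Lcn2 dropped; at most 7 did in any other setting. No paired analysis was possible because there is 1 pooled sample. Depth limits rare genes: in the 1031 cells a gene at 0 UMIs may have up to 0.835 CPM.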
